A study of Rattus norvegicus with 4 samples.

Results

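ATP-dependent chromatin remodelling genes were examined in rat embryonic stem cells (ESCs) with and without a knockout of Thop1, the gene of the metallopeptidase thimet oligopeptidase. The genes were chosen by symbol alone: every autosomal gene of the deposited table whose name begins with Smarc or Ino80, or is an Arid1 to Arid5, Chd or Mbd gene, was taken, which gave 41 of 34773 genes. A further match, Smarca1 on chromosome X, was left out by the rule and had 0 counts in all 4 libraries. The study compared 1 library of WT cells with 1 library from each of 3 Thop1-KO subclones, called #1, #2 and #3 here. All 4 derive from the rat ESC line DA-5-3 with a Rex1-GFP reporter, a marker of naive pluripotency, and the study's methods describe culture on feeder cells in a medium with LIF, PD0325901 and CHIR99021. The subclones were picked after transfection of Cas9 with guides against Thop1 and puromycin selection, and the WT library comes from the parental line. Each subclone is 1 clone with 1 library, so only the subclones show a spread between replicates, and the genotype, the cloning and any difference between single cultures or libraries cannot be told apart.

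Chromatin remodellers are large complexes built around an ATPase of the Snf2 family, which uses ATP to slide, evict or exchange nucleosomes. SWI/SNF complexes (BAF and PBAF) contain Smarca4 or Smarca2 and open chromatin at promoters and enhancers. ISWI complexes contain Smarca5 or Smarca1 and space nucleosomes evenly. CHD proteins carry chromodomains, and Chd4 with Mbd3 forms the core of NuRD, a complex that joins remodelling to histone deacetylation. INO80 exchanges histone variants and acts in transcription and DNA repair. In ESCs the BAF form built on Smarca4, the NuRD subunit Mbd3, Chd1 and Ino80 have each been tied to self-renewal or to exit from pluripotency. MBD and ARID proteins are DNA-binding families, of which only some members belong to a remodelling complex.

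The counts on genes summed to between 15405499 and 17936544 per library. Thop1 was at 370 CPM in WT (TMM-normalized counts scaled to a common library size) and at 110, 92.5 and 149 in #1, #2 and #3. Its log2 fold change (Thop1-KO minus WT) was -1.66 (standard error 0.29, edgeR adjusted p = 0.0187, from the quasi-likelihood F test adjusted by Benjamini-Hochberg). Of 10 naive ESC markers, 9 were in the table, and their summed level was 6242 CPM in WT and 6385 to 7604 in the subclones. Most of this sum is Pou5f1, at 4794 CPM in WT and 3889 to 4842 in the subclones. By edgeR, 3 of the 9 naive markers rose (Esrrb, Tfcp2l1 and Fgf4) and 0 fell, beside 8.62% and 5.17% of all genes tested. Klf4, Nanog and Pou5f1 had log2 fold changes of -0.33, -0.21 and -0.09, with WT inside the subclones. Those of Dppa3, Sox2 and Tbx3 were 1.12, 0.83 and 0.63, with WT below every subclone, and edgeR called none of these. DESeq2 called 4 of the 9, the same 3 and Dppa3. Of 10 fibroblast markers, which feeder cells could carry, 9 were in the table and Dcn, Lum and Thy1 had 0 counts in all libraries. The summed fibroblast level was 208 CPM in WT and 344, 689 and 441 in #1, #2 and #3, with WT below every subclone for 6 of the 9 genes. For this list edgeR called 0 genes, with 3 at an unadjusted p under 0.05, and DESeq2 called 2. The 8 primitive endoderm markers summed to 851 CPM in WT and to 1222, 1367 and 1784 in #1, #2 and #3, with WT below every subclone for 5 of them. Nearly all of this sum is Lama1, at 848 CPM in WT and at 1215, 1361 and 1779 in the subclones. No other gene of the list reached 4 CPM in any library. For these markers edgeR called 0 genes, with 4 of the 6 tested at an unadjusted p under 0.05 (3 higher, and Gata4 lower), and DESeq2 called 0. Of these, Dab2 had at most 22 counts in any library and Gata4 at most 17. Over all 15028 genes tested by edgeR, 5110 had an unadjusted p under 0.05. The part of these markers in the results below was not tested. In bulk RNA, fewer cells of a type and less RNA per cell cannot be told apart.

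Of the 41 remodelling genes, 38 had enough counts to be tested. In edgeR's quasi-likelihood test, with p-values adjusted over all 15028 genes tested, 6 of the 38 were called at an adjusted p under 0.05 (15.8%, beside 13.8% of all genes tested). Arid3a, Arid5b, Ino80, Arid2 and Chd7 rose in Thop1-KO cells, which is 13.2% of the tested remodelling genes beside 8.62% of all genes. Smarca5 fell, which is 2.63% beside 5.17% of all genes. These shares lie near the background. The median log2 fold change of the 38 genes was 0.31 beside 0.06 over all genes tested, with 22 positive and 16 negative values. The WT level lay below all 3 subclones for 18 of the 38 genes (47.4%, beside 38.1% of all genes) and above all 3 for 11 (28.9%, beside 37.6%). DESeq2 called 9 of the genes (21.5% of all genes it could adjust), the same 6 with Arid1a and Arid3b higher and Smarcad1 lower. Without #3 edgeR called 0 of the 38, with 7 at an unadjusted p under 0.05 and the adjusted p of the 6 genes between 0.0513 and 0.159. Without #2 it called 17, the 6 genes among them. Calls over all genes also dropped without #3 and rose without #2, so these counts are not particular to the remodelling genes.

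**Figure D1:**
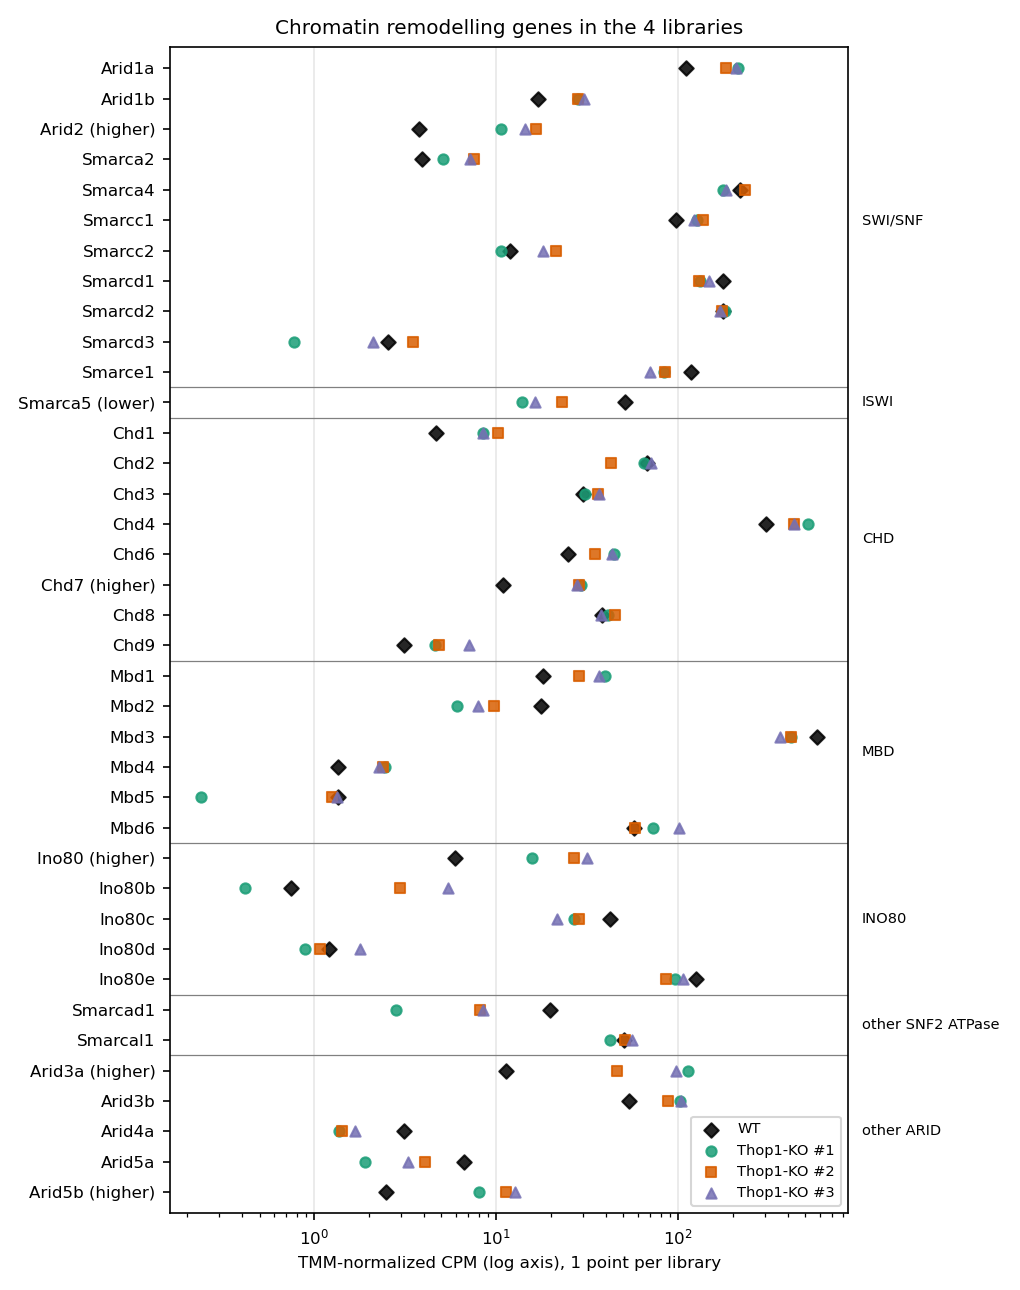
TMM-normalized CPM of the 38 tested remodelling genes on a log axis, 1 point per library, grouped by family; diamonds are WT and the other symbols are subclones #1, #2 and #3. The WT diamond stands left of all 3 subclones for the 5 genes marked higher and right of them for Smarca5.

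The sequence before the annotated RefSeq starts of called genes is described for context. RefSeq starts in build GRCr8 were matched for 36 of the 41 genes, and 33 of these have a single start. In the 250 bases before the start, these 33 genes held a median of 18 CG dinucleotides, with a range of 1 to 43. The median was 6 over the 24206 RefSeq genes with a single start, which were not limited to genes expressed here. The GC box GGGCGG, searched on both strands, was present in 57.6% of the 33 windows and in 33.6% of all. The ETS core CCGGAA was in 27.3% and 13.9%, the E-box CACGTG in 9.09% and 5.86%, CCAAT in 33.3% and 34.4% and TATAAA in 9.09% and 13.3%. Among called genes with a single start, Smarca5 had the most CG dinucleotides in its 250 bases (43) and Arid3a the fewest (3), with 5 at Arid5b and 27 at Ino80. The last 120 bases before the annotated RefSeq start are given for 3 of them, 5′ to 3′ on the strand of the gene. Each CG is in capitals. Smarca5 lies at chr19:44176175-44176294 on the plus strand, Ino80 at chr3:126919533-126919652 on the minus strand and Arid3a at chr7:10427927-10428046 on the minus strand.
Smarca5: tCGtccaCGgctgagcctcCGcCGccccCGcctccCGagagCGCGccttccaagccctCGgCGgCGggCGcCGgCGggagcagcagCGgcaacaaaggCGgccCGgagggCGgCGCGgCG
Ino80: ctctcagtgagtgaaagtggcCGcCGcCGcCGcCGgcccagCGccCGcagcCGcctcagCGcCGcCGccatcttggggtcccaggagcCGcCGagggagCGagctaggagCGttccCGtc
Arid3a: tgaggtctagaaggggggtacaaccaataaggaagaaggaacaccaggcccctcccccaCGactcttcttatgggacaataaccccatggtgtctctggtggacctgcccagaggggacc
These windows hold 21 CG dinucleotides at Smarca5, 16 at Ino80 and 1 at Arid3a. The Ino80 window is thus CG-rich and the Arid3a window CG-poor. Read in triplets from its first base, the Smarca5 window holds no stop codon, so it may be coding sequence rather than promoter. It was not compared with the protein, and nothing about the Smarca5 promoter is drawn from its CG counts. Smarca5 is among the 33 genes above. Its 250 bases set the top of their CG range (43) and count in their GC box and ETS core shares. A motif match is only a match of letters, and no binding was measured.

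In the SWI/SNF group, 1 of 11 tested genes was called (9.09%, beside 13.8% of all genes tested). The ATPase that dominates ESC complexes was not called. Smarca4 (BRG1) was at 218 CPM in WT and at 176, 234 and 183 in #1, #2 and #3, with WT inside the range of the subclones. Its log2 fold change was -0.14 (standard error 0.26, edgeR adjusted p = 0.722). Smarca2 (BRM), the alternative ATPase, was at 3.90 CPM in WT and at 5.07, 7.58 and 7.18 in the subclones. WT lay below all of them, and the log2 fold change of 0.76 (standard error 0.45, edgeR adjusted p = 0.270) did not pass the test.

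Arid2, the ARID subunit that defines PBAF, was the SWI/SNF gene that rose. It was at 3.77 CPM in WT and at 10.6, 16.6 and 14.4 in #1, #2 and #3, so each subclone was above WT. The log2 fold change was 1.88 (standard error 0.44, edgeR adjusted p = 0.0388). Its record (ENSRNOG00000004831) lies on chromosome 7 from 137680530 to 137795655 on the plus strand in the deposited annotation. Arid1a, the ARID subunit of most BAF complexes, was at 111 CPM in WT and at 213, 183 and 207 in the subclones, all above WT. Its log2 fold change of 0.86 (standard error 0.24) had an edgeR adjusted p of 0.0610. Arid1b, which takes the place of Arid1a in other BAF complexes, was at 16.9 CPM in WT and at 28.8 ± 1.40 (SD, n = 3) in the subclones, all above WT (log2 fold change 0.77, edgeR adjusted p = 0.124). With an offset for gene length the log2 fold changes of Arid2, Arid1a and Arid1b were 1.53, 0.50 and 0.40, and none of these 3 long genes was called.

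The scaffold subunits showed no call. Smarcc1 (BAF155) was at 97.1 CPM in WT and at 127, 136 and 122 in #1, #2 and #3. Smarcc2 (BAF170) was at 11.8 in WT, with 10.6 in #1, 21.4 in #2 and a mean of 16.6 ± 5.54 (SD, n = 3) over the subclones. Of this pair only Smarcc1 had WT below every subclone, and the log2 fold changes were 0.41 and 0.49. The BAF60 genes also differed in order. Smarcd1 was at 177 CPM in WT and at 132, 130 and 148 in the subclones, while Smarcd2 was at 175 and at 180, 174 and 169. Smarcd3, a low gene, was at 2.56 CPM in WT and at 0.775, 3.51 and 2.11. Smarce1 (BAF57) was at 117 CPM in WT and at 79.6 ± 8.58 (SD, n = 3) in the subclones, all below WT (log2 fold change -0.56, edgeR adjusted p = 0.162).

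Smarcb1 (SNF5), a core subunit of BAF and PBAF, was listed at 0, 1, 0 and 0 counts in WT, #1, #2 and #3 and could not be tested. A second record of the table, LOC103694876 on the unplaced scaffold AABR07024104.1, is also described as SMARCB1. It held 536 counts in WT and 46, 52 and 437 in the subclones, or 36.1, 2.74, 2.94 and 24.3 CPM. Its level was thus highest in WT, lower in #3 and far lower in #1 and #2. With the 2 records summed, a choice made after the values were seen, the log2 fold change was -1.84 (standard error 1.08, edgeR adjusted p = 0.264). The sequences of the records were not compared, and how reads were shared between them is not known, so the level of Smarcb1 is uncertain. Arid4b (0, 9, 1 and 0 counts) also has a second record, LOC100912163, described as like ARID4B (3, 2, 9 and 0 counts), and Chd5, mainly a gene of the nervous system, had 0, 1, 4 and 4 counts. These 3 genes complete the 41.

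Smarca5 (SNF2H), the ATPase of ISWI complexes in most dividing cells, was the only remodelling gene that fell in edgeR's test. It was at 50.9 CPM in WT and at 13.9, 22.9 and 16.3 in #1, #2 and #3, or 17.7 ± 4.68 (SD, n = 3) over the subclones. All 3 subclones were well below WT. The log2 fold change was -1.52 (standard error 0.34, edgeR adjusted p = 0.0343). The record (ENSRNOG00000018149, chromosome 19 from 30936703 to 30969454, plus strand) overlaps no other gene with at least 10 counts. The other ISWI ATPase, Smarca1, had no counts.

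In the CHD family, 1 of 8 tested genes was called (12.5%, beside 13.8% of all genes tested). Of the 8 log2 fold changes, 7 were positive, with a median of 0.65. These are long genes, with a median length of 8900.5 bases, and over all genes above 6000 bases the median was 0.44. With an offset for gene length the median of the CHD genes was 0.29. Chd7, a remodeller that binds enhancers in ESCs, was at 10.8 CPM in WT and at 29.2, 28.6 and 27.7 in #1, #2 and #3. The subclones lay close together (28.5 ± 0.782, SD, n = 3) and all above WT. The log2 fold change was 1.39 (standard error 0.31, edgeR adjusted p = 0.0350). Chd7 (ENSRNOG00000006689) lies on chromosome 5 from 21830882 to 21950696 on the plus strand.

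Chd4 (Mi-2β), the ATPase of NuRD in ESCs, was at 306 CPM in WT and at 519, 431 and 434 in the subclones. Each subclone was above WT, but the log2 fold change of 0.59 (standard error 0.24, edgeR adjusted p = 0.130) did not pass the test. Chd3 (Mi-2α) was far lower, at 30.0 CPM in WT and 30.9, 36.3 and 36.8 in the subclones (log2 fold change 0.21, standard error 0.28, edgeR adjusted p = 0.630). Chd1, which binds H3K4 trimethylation, was at 4.64 CPM in WT and at 8.41, 10.2 and 8.40 in the subclones (log2 fold change 0.96, standard error 0.39, edgeR adjusted p = 0.141). Chd8, a close relative of Chd7, was at 38.0 CPM in WT and at 41.0, 44.9 and 37.7, so that WT lay within the subclones (log2 fold change 0.12, standard error 0.27, edgeR adjusted p = 0.782). Chd2, the closest relative of Chd1, was at 67.0 CPM in WT and at 64.7, 42.8 and 70.8, with WT inside the subclones (log2 fold change -0.17, standard error 0.34, edgeR adjusted p = 0.743). The log2 fold changes of Chd6 and Chd9 were 0.71 and 0.83, and neither was called.

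Of the 6 MBD genes, whose proteins share the methyl-CpG-binding domain, edgeR called 0 and DESeq2 called 0. In edgeR 3 of them had an unadjusted p under 0.05, beside 5110 of all 15028 genes tested. Mbd3, the NuRD subunit whose domain does not prefer methylated DNA, was at 582 CPM in WT and at 416, 418 and 364 in #1, #2 and #3. Mbd2, its alternative in NuRD, was at 17.7 CPM in WT and at 6.08, 9.73 and 7.96. Both had WT above all subclones, with log2 fold changes of -0.54 (edgeR adjusted p = 0.125) and -1.16 (edgeR adjusted p = 0.0822). Mbd1, which binds methylated promoters, was at 18.2 CPM in WT and at 39.5, 28.7 and 36.6 in the subclones, all above WT (log2 fold change 0.94, edgeR adjusted p = 0.0981). Mbd4, a DNA glycosylase, Mbd5 and Mbd6 had log2 fold changes of 0.81, -0.51 and 0.43. The record of Mbd6 overlaps that of Dctn2, which was at 314 CPM in WT, so its level is uncertain.

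Ino80, the ATPase of the INO80 complex, rose. It was at 5.92 CPM in WT and at 15.8, 26.6 and 31.6 in #1, #2 and #3. Every subclone was above WT, although they differed among themselves (24.7 ± 8.09, SD, n = 3). The log2 fold change was 2.06 (standard error 0.50, edgeR adjusted p = 0.0422). Its record (ENSRNOG00000014483) spans chromosome 3 from 111187711 to 111266542 on the minus strand. None of the other 4 lettered genes was called. Ino80c was at 41.9 CPM in WT and at 26.6, 28.7 and 21.5 in the subclones, and Ino80e was at 126 in WT and at 96.2, 85.2 and 106, with WT the highest library for both. Their log2 fold changes were -0.71 and -0.40. Ino80b had only 11 counts in WT and 7, 52 and 98 in #1, #2 and #3, so that #1 lay below WT and the others above it (log2 fold change 1.98, standard error 1.33, edgeR adjusted p = 0.327). Ino80d had a log2 fold change of 0.05. The record of Ino80e overlaps that of Doc2a, a low gene at 1.21 CPM in WT.

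Among ARID genes outside SWI/SNF, 2 of 5 tested were called (40%, beside 13.8% of all genes tested). Arid3a (Bright), a DNA-binding factor with roles in the trophectoderm and in B cells, had the largest log2 fold change of the 38 genes. It was at 11.3 CPM in WT and at 114, 46.3 and 96.9 in #1, #2 and #3. All subclones were far above WT, and #2 was the lowest of them. The log2 fold change was 2.92 (standard error 0.59, edgeR adjusted p = 0.0270). Its record (ENSRNOG00000026435, chromosome 7 from 12574198 to 12601674, minus strand) lies within the spans of Arhgap45 on the same strand and Med16 on the other. Arhgap45 was at 38.8 CPM in WT and at 61.7, 67.1 and 84.7 in the subclones, and Med16 at 163 and at 118, 119 and 121, so the level of Arid3a is uncertain. Its relative Arid3b was at 53.4 CPM in WT and at 102, 88.2 and 104, all above WT (log2 fold change 0.87, edgeR adjusted p = 0.0701).

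Arid5b, a cofactor of the histone demethylase Phf2, was at 2.49 CPM in WT and at 8.05, 11.4 and 12.7 in the subclones, each above WT. Its log2 fold change was 2.10 (standard error 0.47, edgeR adjusted p = 0.0353). The record (ENSRNOG00000000635, chromosome 20 from 21564975 to 21880715, plus strand) is listed as a processed transcript, not as protein coding. Arid4a and Arid5a had log2 fold changes of -1.06 and -1.11, with WT above every subclone, and were not called. Of the remaining Snf2 ATPases, Smarcad1, which acts at repressed chromatin during replication, was at 19.6 CPM in WT and at 2.80, 8.15 and 8.40 in #1, #2 and #3. WT was the highest library and #1 the lowest (log2 fold change -1.60, standard error 0.57, edgeR adjusted p = 0.103). Smarcal1, an annealing helicase of stalled forks, was at 50.7 CPM in WT and at 42.2, 51.0 and 55.7.

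**Figure D2:**
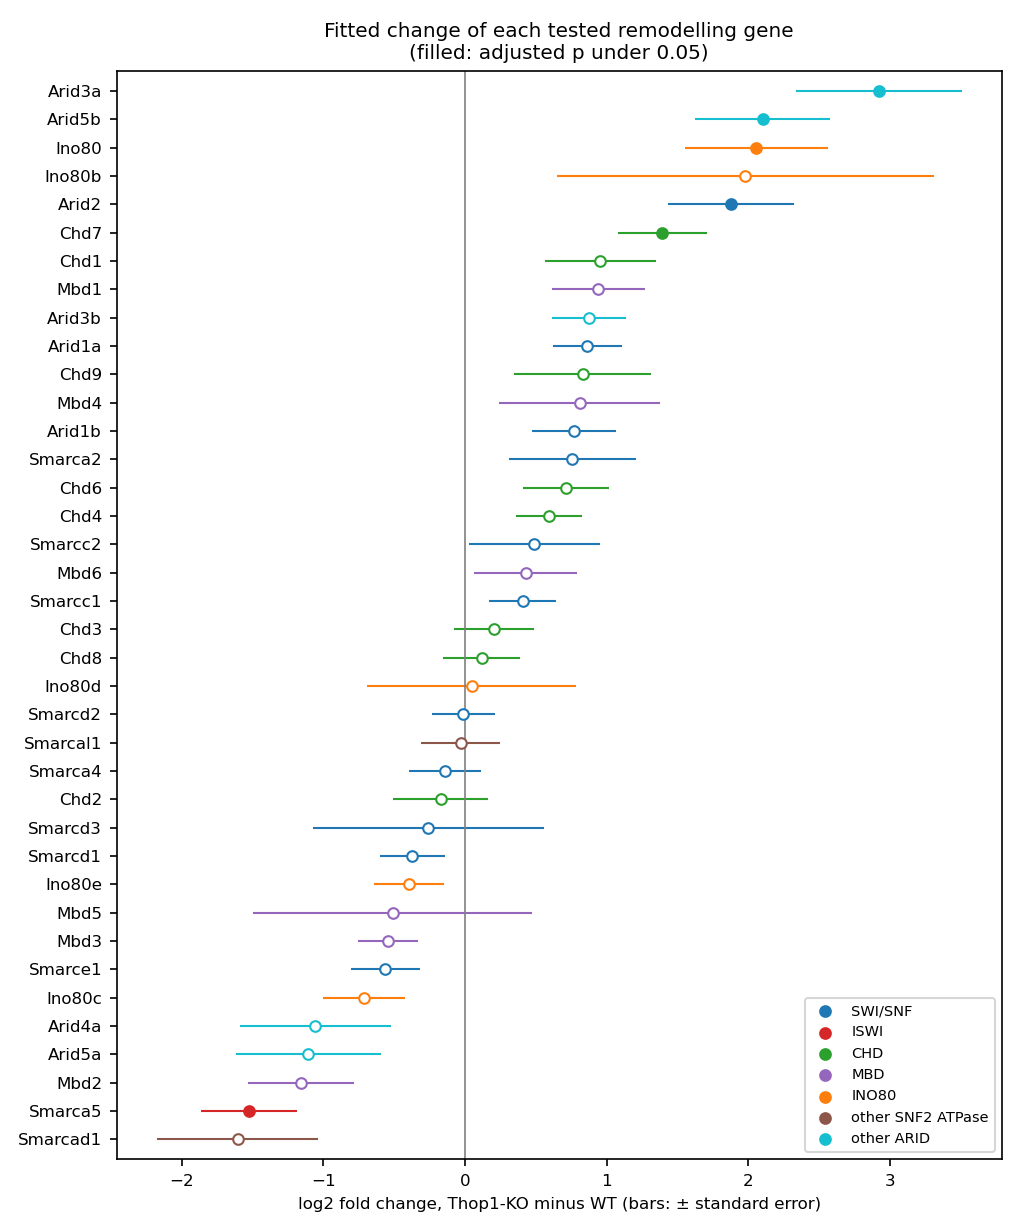
Log2 fold change (Thop1-KO minus WT) of the 38 tested remodelling genes from edgeR, with bars of 1 standard error, coloured by family; filled points have an adjusted p under 0.05. The 6 filled points run from -1.52 at Smarca5 to 2.92 at Arid3a, and Smarcad1 at -1.60 is open, with a standard error of 0.57.

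Levels of different genes were compared per length, in the FPKM values deposited by the authors. In WT the order of FPKM was Mbd3 at 302, Smarcd2 at 67.2, Ino80e at 60.8, Smarcd1 at 53.3, Chd4 at 45.8 and Smarca4 at 38.6. In the subclones Mbd3 was again first at 207 ± 17.8 (SD, n = 3), followed by Chd4 at 69.1 ± 8.01 and Smarcd2 at 66.7 ± 2.64. Chd4 and Smarcd2 in the subclones differed by less than the spread of Chd4. Summed FPKM over the SWI/SNF genes was 236 in WT and 232, 243 and 228 in #1, #2 and #3, with WT inside the subclones. Over the CHD genes it was 66.0 in WT and 103, 87.9 and 89.9, of which Chd4 is the greater part. Over the MBD genes it was 336 in WT and 257, 251 and 233, of which most is Mbd3. The FPKM sum over all genes tested was itself higher in WT, at 825150, and 720884, 640128 and 660041 in #1, #2 and #3. These family sums are thus not shares of a fixed total. The SWI/SNF sum leaves out LOC103694876.

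Several complexes hold 1 of a pair of paralogs, so the ratio of their FPKM was taken in each library for 9 pairs. With 1 WT library and 3 subclones, the smallest p of an exact permutation test (one-sided) is 0.25, so these ratios are given without a test. The log2 ratio of Smarca4 to Smarca2 was 5.65 in WT and 4.97, 4.79 and 4.52 in #1, #2 and #3, so the share of Smarca2 was greater in every subclone. The ratio of Chd7 to Chd8 was -2.02 in WT and -0.70, -0.87 and -0.66, and that of Chd1 to Chd2 was -3.22 in WT and -2.32, -1.44 and -2.45. In both pairs the first gene took a greater share in every subclone. The ratio of Mbd3 to Mbd2 was 4.82 in WT and 5.88, 5.21 and 5.30, and that of Chd4 to Chd3 was 3.43 and 4.16, 3.66 and 3.65. Both NuRD pairs thus leaned further to the dominant gene in the subclones. The ratio of Smarcd1 to Smarcd2 was -0.33 in WT and -0.79, -0.76 and -0.54. For Smarcc1 to Smarcc2, Smarcd1 to Smarcd3 and Arid1a to Arid1b the WT ratio lay within those of the subclones.

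**Figure D3:**
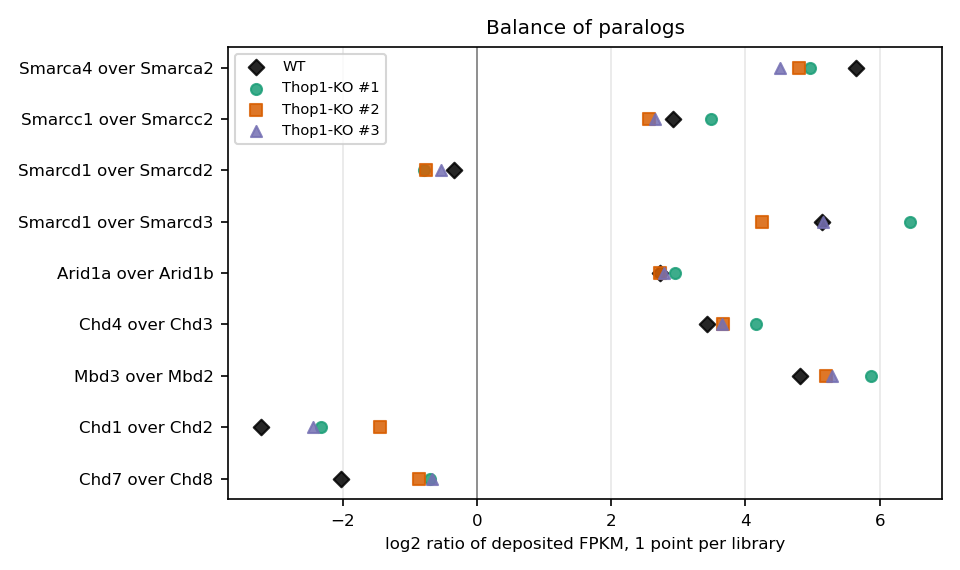
Log2 ratio of the deposited FPKM of 9 paralog pairs, 1 point per library; diamonds are WT and the other symbols are the 3 subclones. WT stands apart from all subclones most at Chd7 over Chd8, where it is at -2.02 and the subclones are between -0.87 and -0.66.

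Remodelling complexes also contain subunits that the symbol rule does not reach, and 65 such genes were listed, with other Snf2 ATPases among them. All 65 have a record, 63 were tested and 16 were called by edgeR (25.4%, beside 13.8% of all genes), 9 higher and 7 lower. Their median log2 fold change was 0.00. Among the called partners, those of ISWI ATPases had the largest log2 fold changes. Baz2a (TIP5), which guides Smarca5 to ribosomal DNA, was at 15.5 CPM in WT and at 233, 168 and 202 in #1, #2 and #3 (log2 fold change 3.70, standard error 0.34, edgeR adjusted p = 0.00678). Cecr2, a bromodomain partner of ISWI ATPases, was at 8.48 CPM in WT and at 126, 68.2 and 115 (log2 fold change 3.60, standard error 0.48, edgeR adjusted p = 0.00970). Both genes were thus far above WT in every subclone, while Smarca5 was below it. They were the only 2 called of 9 ISWI partners (22.2%, beside 13.8% of all genes tested). The other 7 (Bptf, Rsf1, Pole3, Baz1b, Baz1a, Chrac1 and Baz2b) had log2 fold changes from -0.61 to 1.13.

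In NuRD, 4 of 10 partners were called (40%, beside 13.8% of all genes tested). Mta2, a scaffold subunit, was at 83.2 CPM in WT and at 266, 210 and 202 in the subclones (log2 fold change 1.44, edgeR adjusted p = 0.0256). The histone chaperones moved in opposite directions. Rbbp4 was at 58.9 CPM in WT and at 133, 123 and 129 (log2 fold change 1.12, edgeR adjusted p = 0.0338), whereas Rbbp7, on chromosome X, was at 399 and at 218, 234 and 203 (log2 fold change -0.87, edgeR adjusted p = 0.0421). Cdk2ap1, a small NuRD subunit, fell from 194 CPM in WT to 79.5, 94.4 and 85.8 (log2 fold change -1.17, edgeR adjusted p = 0.0248).

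Of 14 tested BAF, PBAF and ncBAF partners, 2 rose and 2 fell (28.6% called, beside 13.8% of all genes tested). Bcl7c was at 123 CPM in WT and at 64.5, 50.6 and 51.7 in the subclones (log2 fold change -1.14, edgeR adjusted p = 0.0338). Dpf1, a PHD finger subunit known from neurons, was at 27.3 CPM in WT and at 8.11, 11.1 and 8.57 (log2 fold change -1.56, edgeR adjusted p = 0.0293). Both were below WT in every subclone. Bicral, a subunit of ncBAF, was at 3.90 CPM in WT and at 13.9, 9.73 and 15.8 (log2 fold change 1.75, edgeR adjusted p = 0.0496). Ss18l1 (CREST) was near the lower end of detection in WT, at 0.471 CPM, and at 5.60, 2.83 and 4.79 in the subclones (log2 fold change 3.21, edgeR adjusted p = 0.0348).

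Of 18 partners in INO80, SRCAP and TIP60, Nfrkb rose and Znhit1 and Uchl5 fell (16.7% called, beside 13.8% of all genes tested). Nfrkb, of the INO80 complex, was at 12.0 CPM in WT and at 33.9, 28.4 and 36.9 in the subclones (log2 fold change 1.46, edgeR adjusted p = 0.0360). Uchl5, a deubiquitinase bound to INO80 and to the proteasome, was at 16.3 CPM in WT and at 5.19, 7.41 and 6.34 (log2 fold change -1.37, edgeR adjusted p = 0.0498). Znhit1, of SRCAP, was at 102 CPM in WT and at 29.6, 31.6 and 22.4 (log2 fold change -1.87, edgeR adjusted p = 0.0125).

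Of 12 other Snf2 family ATPases, 3 were called (25%, beside 13.8% of all genes tested). Rad54l2, a partner of the androgen receptor, was at 6.59 CPM in WT and at 62.0, 47.1 and 64.1 in the subclones (log2 fold change 3.13, edgeR adjusted p = 0.00762). Ttf2, which ends transcription in mitosis, was at 4.51 CPM in WT and at 58.2, 22.9 and 38.0 (log2 fold change 3.13, edgeR adjusted p = 0.0265). Ercc6l (PICH), a helicase of mitotic DNA bridges on chromosome X, was at 28.2 CPM in WT and at 4.89, 9.11 and 8.79 (log2 fold change -1.89, edgeR adjusted p = 0.0305). Uchl5 lost its call in 8 of 13 alternatives, with library size only and under both other count filters among them, Bicral in 7 and Rbbp7 in 6. Without #3 the number of partners called dropped to 3, with 19 at an unadjusted p under 0.05, and without #2 it was 29. Calls over all genes moved in the same directions.

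**Figure D4:**
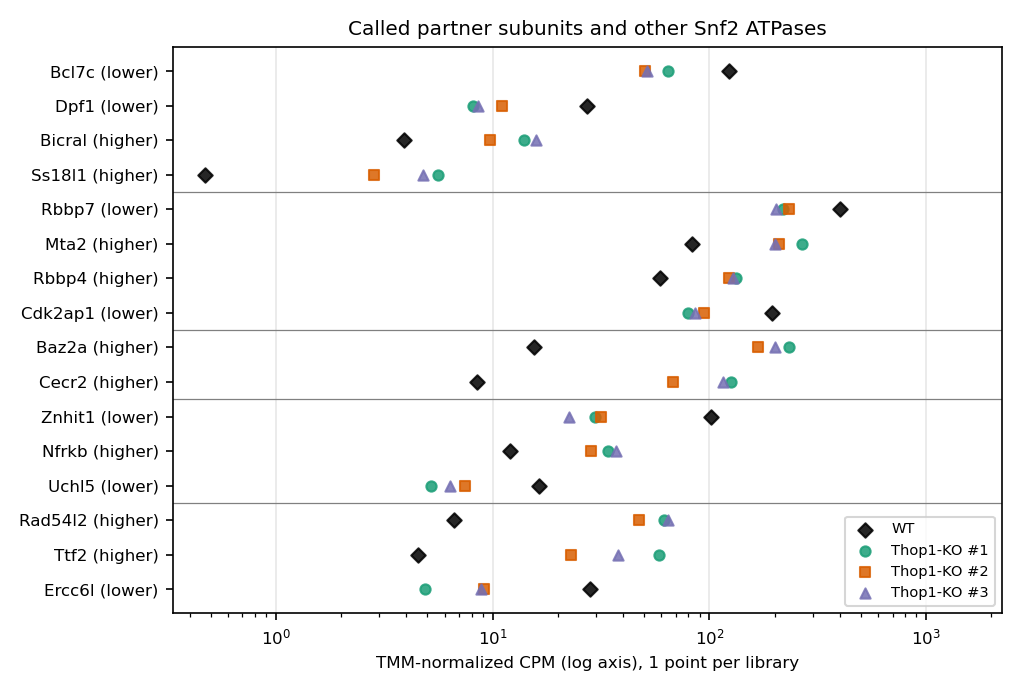
TMM-normalized CPM of the 16 called partner genes on a log axis, 1 point per library; lines divide, from the top, BAF partners, NuRD partners, ISWI partners, INO80, SRCAP and TIP60 partners, and other Snf2 ATPases. The WT diamond lies outside the 3 subclones in all 16, which were drawn because they were called, so this is not a further result. The widest gap is at Baz2a, at 15.5 CPM in WT and at least 168 in the subclones.

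Many remodelling genes have long transcripts, and log2 fold changes rose with gene length in this comparison. Over all genes tested the median was -0.47 for models of up to 1000 bases, -0.08 from there to 2000, 0.20 to 4000, 0.38 to 6000 and 0.44 above 6000. The tested remodelling genes had a median length of 4125.5 bases, beside 2096 for all genes tested, and 11 of them were longer than 6000 bases. With an offset for gene length in each library, the median log2 fold change of the remodelling genes was -0.02 in place of 0.31, beside 0.01 over all genes. With this offset edgeR called 3 of the 38 genes (12.6% of all genes were called): Arid3a and Arid5b higher and Smarca5 lower. The other 3 kept their direction and missed the threshold, Arid2 at 1.53 (edgeR adjusted p = 0.0552), Ino80 at 1.73 (edgeR adjusted p = 0.0556) and Chd7 at 1.01 (edgeR adjusted p = 0.0878). The median of the family was thus near that of all genes once length was taken into account.

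**Figure D5:**
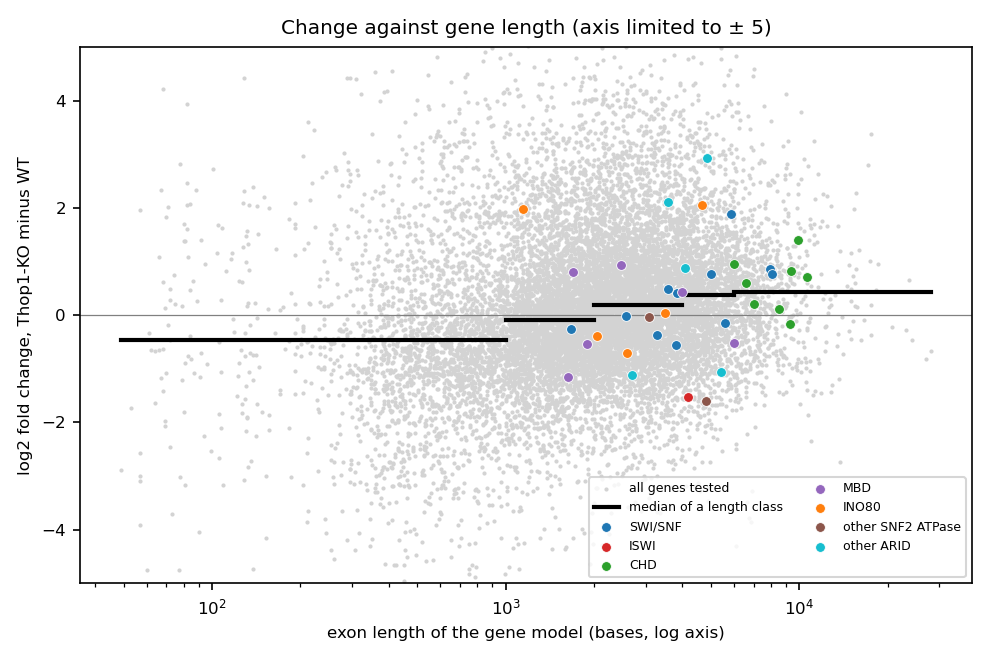
Log2 fold change (Thop1-KO minus WT) against exon length on a log axis, for all 15028 genes tested (grey) and the 38 remodelling genes (coloured by family); bars are the medians of length classes and values beyond the axis limits are not drawn. The class medians climb from -0.47 to 0.44, and the CHD genes lie at the long end.

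The subclones also differed from each other. The median over the 38 genes of the log2 ratio to WT was 0.04 in #1, 0.33 in #2 and 0.37 in #3. Subclone #1 was the lowest of the 3 for 18 of the genes, #2 for 11 and #3 for 9. Among the 36 genes with at least 10 counts in every library, the spread of log2 CPM was widest for Smarcd3 (SD 0.83), Smarcad1 (SD 0.81) and Arid3a (SD 0.69, n = 3 for each). The median SD of these genes was 0.21, beside 0.27 over all genes with such counts. The median spread of these genes was thus below that of all genes, which were not matched for level or length.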

How the data were processed

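Poly(A) RNA-seq libraries of 1 WT culture and 3 Thop1-KO subclones of rat ESCs were analysed. The authors deposited raw counts per gene and FPKM. Their methods name the FASTX toolkit for trimming the reads. The submitters' processing notes name HISAT2 2.0.5 and featureCounts 1.5.0-p3. The genome build and the strand setting are not given in the sources used here, so genes that overlap another gene or have a second record are uncertain. In the deposited FPKM, counts are scaled for gene length and then for the library, by a factor close to the size factor of DESeq2.

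The main test was the quasi-likelihood test of edgeR 4.0.16 (R 4.3.3) between the subclones and WT, after TMM scaling and a filter on low counts (filterByExpr, minimum count 10). The Benjamini-Hochberg adjustment ran over all 15028 genes tested, and genes with an adjusted p under 0.05 were called. Standard errors are the absolute log2 fold change divided by the square root of F. The totals of 15405499 to 17936544 counts per library and the single WT library limit the precision. Since 1 library cannot show a spread, the dispersion came from the subclones, and nothing in the labels says whether further cultures were made. The test was also run on simulated counts. With 1 WT library smaller changes can go uncalled, so a gene not called is not shown to be unchanged. No pair of libraries agreed within sampling noise by a chi-square test.

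The members, the partner list, the marker lists and the pairs were chosen with earlier results of these data known. All members are named. Full values are given for called members, core ATPases (Smarca2, Smarca4, Smarca5, Chd1, Chd3, Chd4, Chd7, Chd8 and Ino80), the 3 members with the widest spread, genes of the pairs and called partners. The overlapping genes and the record LOC103694876 were added after the values were seen. Alternatives were other scalings, DESeq2 1.42.0, other filters on low counts, a loess offset for gene length (span 0.3), limma 3.58.1 on log2 FPKM with a pseudocount of 1 or 0.1, a rule with a fold of 2 and leaving out each subclone. GC content was not corrected. Promoter windows were placed by the annotated RefSeq start (GRCr8), which was not checked against the coding sequence. Their coordinates are on another build than the gene records may be on and were not mixed with them. Figures were drawn with Python 3.11.15, pandas 2.3.3 and matplotlib 3.10.9.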

Additional observations from a re-analysis of the deposited data

How the results depend on the processing

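The number of remodelling genes called, 6 of 38, was 6 to 9 under the other scalings and filters and DESeq2. It was 0 with limma on log2 FPKM with a pseudocount of 1 or 0.1, with 12 genes at an unadjusted p under 0.05, and 0 with limma without a filter, with 16. It was 3 with the length offset and 8 with an unadjusted p under 0.05 and a fold of 2. Leaving out 1 subclone gave 0 to 17, with 0 without #3, 6 without #1 and 17 without #2, while the calls over all genes went from 457 without #3 to 5572 without #2. Partners called (16) were 6 and 6 under filtered limma at either pseudocount, 1 without the filter, 21 with the fold rule and 3 to 29 with 1 subclone left out. Shares over all genes under limma and the fold rule are not given here. The counts of members and partners under these settings are therefore not compared with the background. With the length offset 14 partners were called, and Bcl7c, Bicral and Nfrkb lost their calls. Over 13 alternatives Baz2a lost its call in 0, Uchl5 in 8, Bicral in 7 and Rbbp7 in 6. The median log2 fold change of the remodelling genes moved to -0.015 with the length offset. Thop1 was at -1.67 (adjusted p = 0.0567) and -1.69 (adjusted p = 0.0632) under filtered limma, and at -1.67 (adjusted p = 0.204) without the filter.

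The median of all genes was 0.06 with TMM and 0.13 with library size only. Signs turned only for uncalled genes. Smarcd2 was at 0.059 with library size only, 0.014 without a filter and between -0.024 and 0.011 with 1 subclone left out. Smarcal1 was at 0.043 with library size only and between -0.12 and 0.084 with 1 subclone left out. On leaving out 1 subclone, Chd2 ranged from -0.32 to 0.019, Smarcd3 from -0.81 to 0.15 and Ino80d from -0.30 to 0.24. With the length offset Chd8 was at -0.25, Chd3 at -0.15 and Ino80d at -0.22, and Ino80d was at -0.053 with upper quartile scaling. The cause of these changes was not tested. No paired analysis was possible because the WT group holds 1 library, which shares only 1 replicate number with the subclones.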

Other observations

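Hells (LSH), an Snf2 family ATPase needed for DNA methylation, had 0 counts in WT and 18, 4 and 8 counts in #1, #2 and #3. It did not pass edgeR's test (adjusted p = 0.134), and its level in WT was not detectable at this depth. Atrx, another ATPase of the family, which lies on chromosome X, had a log2 fold change of 0.03 (edgeR adjusted p = 0.958).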
